A study of Drosophila melanogaster with 3 samples.

Results

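The 300 strongest binding summits of GFP-tagged CG7839 were described from chromatin immunoprecipitation followed by sequencing (ChIP-seq) of whole fruit fly embryos. The embryos were of mixed sex and aged 0 to 24 h, from a transgenic line stably expressing CG7839 with GFP at its C-terminus, and the protein was precipitated through the tag. All 3 biological replicates form 1 group, every embryo carries the fusion, and no untagged or untreated group was analysed here. The labels name no promoter for the fusion and no tissue within the embryo. The members were selected on the authors' own signal value: they are the 300 peaks of largest value in the list thresholded on the irreproducible discovery rate (IDR), and the remaining 7888 are called the other IDR summits. They are 3.66% of all IDR summits. The signal value ranged from 14037.8 at rank 1 to 2446.41 at rank 300, a 5.74-fold span, and the next summit stood at 2444.66, so no gap in the values sets the members apart. The value has no stated scale and serves here only to rank peaks, and read depth is unknown from the files.

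CG7839 is annotated as Noc1. In budding yeast, Noc1 acts with Noc2 in the nucleolus on early precursors of the large ribosomal subunit. A ChIP-seq summit marks the base where fragments pulled down with a protein pile up highest, and it does not show whether the protein touches DNA there itself or through other factors. Strong signals that recur at the starts of active genes are also known from ChIP-seq of many unrelated tagged proteins.

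The summit base and the 50 bp on either side of it are shown for 5 members first, because the results on GC content below turn on this stretch. They are the 4 strongest members, and the strongest intergenic one, among the members whose window holds no annotated exon and that lie on the arms from which sequence is shown. Sequences are from the RefSeq dm6 assembly, plus strand, 5′ to 3′, and capitals mark the longest run without G or C, the first one where runs tie. The CG14100 member (rank 1, 3L:19590570-19590670) lies 96 bp upstream of a gene without a given name, and the cbt member (rank 3, 2L:481029-481129) lies in an intron of ush. The CG11050 member (rank 4, 2L:6612663-6612763) lies in an intron of CG11050, and the Art3 member (rank 6, 3R:15229486-15229586) lies between the starts of Art3 and mRpS10. The intergenic member (rank 31, 2L:1638744-1638844) is nearest to lncRNA:CR45695.
CG14100: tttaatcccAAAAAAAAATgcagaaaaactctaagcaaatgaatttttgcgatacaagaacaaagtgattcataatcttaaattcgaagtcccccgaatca
cbt: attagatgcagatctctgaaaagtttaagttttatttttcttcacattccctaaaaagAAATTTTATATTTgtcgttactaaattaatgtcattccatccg
CG11050: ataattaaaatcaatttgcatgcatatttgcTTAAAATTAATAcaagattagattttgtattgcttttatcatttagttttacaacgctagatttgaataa
Art3: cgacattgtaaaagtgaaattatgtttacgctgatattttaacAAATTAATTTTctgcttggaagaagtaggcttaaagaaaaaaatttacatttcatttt
lncRNA:CR45695: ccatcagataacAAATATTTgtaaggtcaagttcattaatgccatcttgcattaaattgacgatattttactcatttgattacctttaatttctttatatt

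GC content of these windows was 30.7% at CG14100, 26.7% at cbt, 20.8% at CG11050, 24.8% at Art3 and 25.7% at lncRNA:CR45695. Across all 300 members the median was 26.7% (quartiles 22.8 and 31.7), against 29.7% (25.7 and 36.6) in the other IDR summits. The flanks, taken from 150 to 250 bp on either side, had a median GC content of 45.5% in members and 43.1% in the others. The centre was thus a median of 17.8 percentage points below its own flanks in members and 12.9 points below in the others. It was below the flanks in 294 of 300 members (98.0%) and in 6449 of 7888 others (81.8%). This measure was chosen after the mean profile had been seen and is given without a test.

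**Figure D1:**
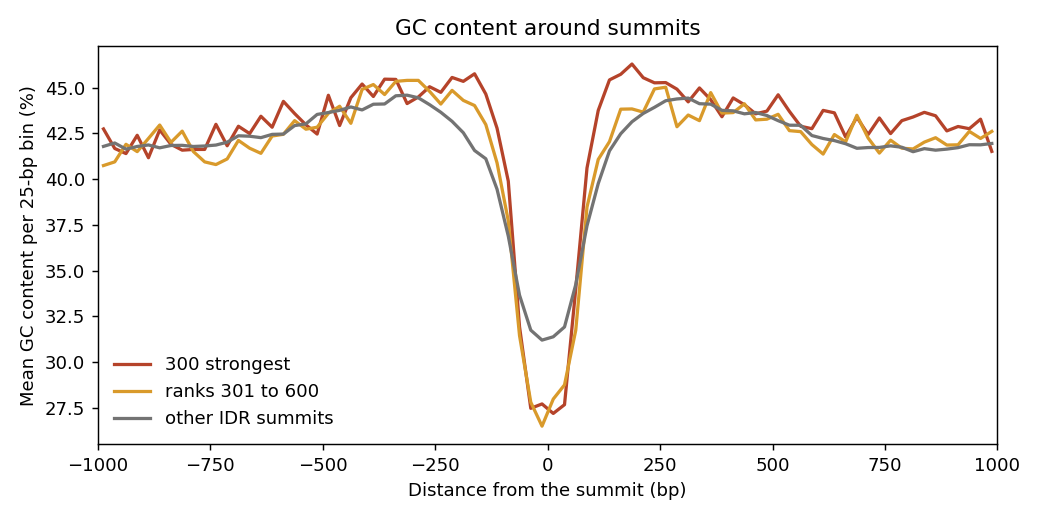
Mean GC content (%) in 25-bp bins against distance from the summit (bp) for the 300 strongest summits, the next 300 and all other IDR summits. In the 300 strongest, the 4 central bins lie between 27.2% and 27.7% and the bin starting at 150 bp lies at 45.7%, while the central bins of the other IDR summits lie at 31.2% or above.

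The fall towards the summit was present in both main settings. Promoter members fell by a median of 17.8 points, against 8.91 points in other promoter summits, and members in introns or intergenic DNA fell by 17.3 points, against 14.9 in others of those classes. Among summits placed within 10 bp in all 3 replicates, 144 members fell by a median of 16.8 points and 804 others by 12.9 points. In the replicates' own lists, the 300 strongest summits fell by medians of 18.3, 18.3 and 17.3 points in replicates 1, 2 and 3, and the rest, down to as many summits as the IDR list holds, by 12.9, 11.9 and 11.9. The feature continued below the members: the next 300 summits fell by 16.8 points. Single members varied widely. CG15771 had 21.8% GC at the centre and 60.4% in the flanks, and the member upstream of Ldh, which encodes lactate dehydrogenase, had 18.8% and 55.9%. At sp3 the centre was higher (43.6%) than the flanks (28.2%).

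Ranks in the replicates were given by the nearest summit within 100 bp. The pooled signal was made from the same reads, so these ranks describe how evenly the replicates contributed and are no separate evidence. All 300 members had a match in replicates 1 and 2, and 299 had one in replicate 3. A match in all 3 lists was found for 299 members (99.7%), against 89.2% of the other IDR summits. Of the next 300 summits, 300, 298 and 300 had a match in replicates 1, 2 and 3. The single member without one was near Drat (rank 211), whose nearest summit in replicate 3, at rank 233, lay 1 bp past the limit. Of the members, 284, 278 and 285 were among the 300 strongest of replicates 1, 2 and 3, and 255 were so in all 3 replicates, 37 in 2 and 8 in 1. The weakest ranks were 369, 414 and 378.

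**Figure D2:**
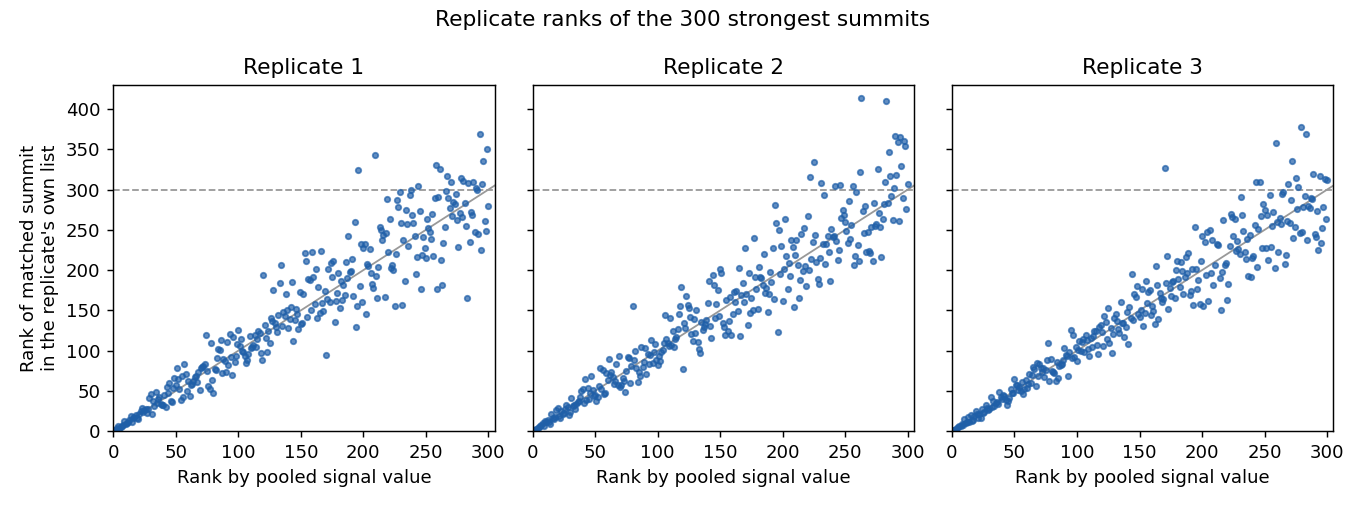
Rank of each member in the own list of replicates 1, 2 and 3 against its rank by pooled signal value, with 1 point a member. The solid line marks equal ranks and the dashed line rank 300; points widen away from the line with rank, and the weakest rank is 414, in replicate 2.

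The spread of a member's 3 ranks grew with rank, from a median SD of 8.39 ranks in the strongest 100 members to 23.2 in the next 100 and 37.7 in the last 100. Relative to the mean rank it did not grow, with a median coefficient of variation of 18.5%, 14.4% and 15.6%. Matched summits lay a median of 4, 5 and 6 bp from the pooled summit in replicates 1, 2 and 3. For the other IDR summits the distances were 11, 12 and 14 bp. The next 300 summits were close to the members in this, at 6, 5 and 7 bp. Pooled summits were made from the same reads, so these distances are no separate evidence of precise placement. The widest spread was at Poxm, a paired-box transcription factor gene, ranked 166, 410 and 369 in replicates 1, 2 and 3. Fer2LCH, which encodes a ferritin light chain, ranked 181, 414 and 257. The member near sp3 ranked 95, 228 and 327. CG7841 ranked 324, 123 and 177, and Piezo, a mechanosensitive channel gene, ranked 343, 154 and 182. In these 5 members replicate 1 gave the strongest rank of 3 and the weakest of 2.

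The next question was where in the gene annotation the members lie. Promoters, taken as 500 bp to either side of any transcript start, held 198 members (66.0%, 95% Wilson interval 60.5 to 71.1), against 36% of the other IDR summits. The difference was 30.0 percentage points, with a 95% Newcombe interval of 24.4 to 35.3. It was 31.9, 23.5 and 23.8 points when each replicate's own 300 strongest summits were set against the rest of its own list, cut to the length of the IDR list, a mean of 26.4 ± 4.78 points (SD, n = 3). Introns held 76 members (25.3%), against 42.1% of the others, a difference of -16.8 points (-21.5 to -11.4). Intergenic DNA held 22 members (7.33%), against 19.4%, a difference of -12.1 points (-14.7 to -8.45). The interval excluded 0 for each of these 3 classes, also when widened for the 7 classes compared. These intervals cover counting error over summits, which are not fully independent of their neighbours.

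The remaining 4 members were 3 in non-coding exons and 1 in a 5′ UTR of baz (rank 68), a cell polarity gene. The exons were of lncRNA:Vinr (rank 8, 535 bp upstream of lncRNA:CR44619), lncRNA:CR44619 (rank 48) and lncRNA:CR46035 (rank 65). None lay in a coding exon or a 3′ UTR. With 0.165% of the others in coding exons and 0.951% in 3′ UTRs, the intervals of both differences included 0, so a difference was not detectable with 300 members.

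**Figure D3:**
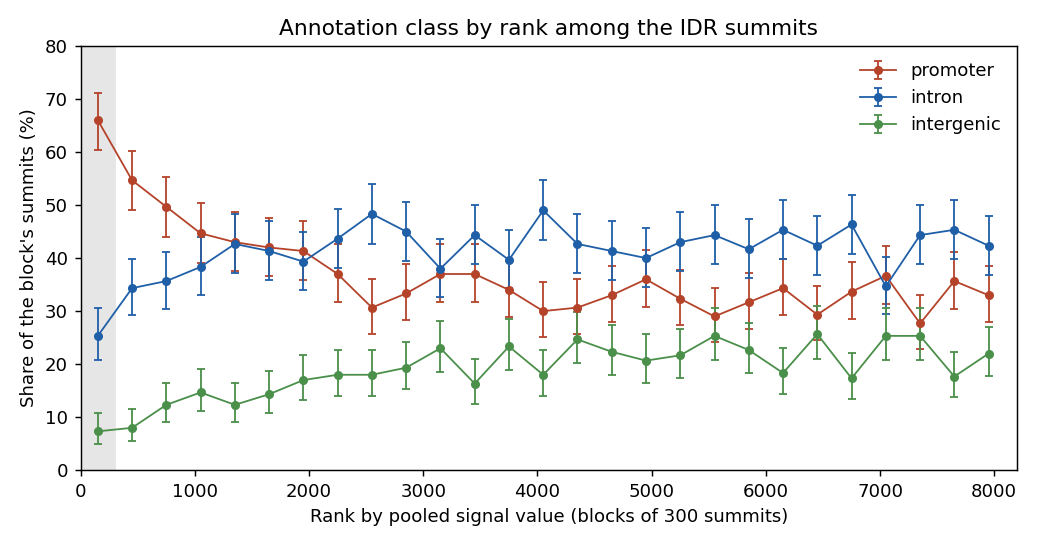
Share (%) of promoter, intron and intergenic summits in successive blocks of 300 IDR summits by rank, with 95% Wilson intervals as bars; the shaded block holds the 300 strongest. The promoter share falls from 66.0% through 54.7% and 49.7% in the next blocks.

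The promoter share declined over the first blocks of 300, and its largest fall between neighbouring blocks was the one from the members to the next 300 summits. It was 54.7%, 49.7% and 44.7% in the 3 blocks after the members, and lay between 27.7% and 37.0% in every block beyond rank 2100. Against the next 300 summits alone, the promoter difference was 11.3 points (3.50 to 19.0) and the intron difference -9 points (-16.2 to -1.68). The intergenic difference was -0.667 points (-5.04 to 3.69), whose interval includes 0. Within the members the share showed no steady order, with 36, 29, 33, 39, 27 and 34 promoter summits in successive blocks of 50.

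Promoter members lay upstream of their start in 177 of 198 cases (89.4%), against 78.0% of the other promoter summits, a difference of 11.4 points (6.14 to 15.3). The window from 100 to 200 bp upstream alone held 98 of them (49.5%), against 27.1%, a difference of 22.4 points (15.3 to 29.5). The median position was -159.5 bp. A smaller set of 12 lay 50 to 100 bp downstream (6.06% against 3.98%), and the interval of that difference included 0 (-0.598 to 6.36). Among these 12 were PNPase, which encodes a mitochondrial polynucleotide phosphorylase, at 84 bp, and Chro, which encodes a chromodomain protein of interbands, at 88 bp. In 63 promoter members (31.8%) the summit lay upstream of starts on both strands, against 26.6% of the others (difference 5.18 points, -1.13 to 12.1).

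**Figure D4:**
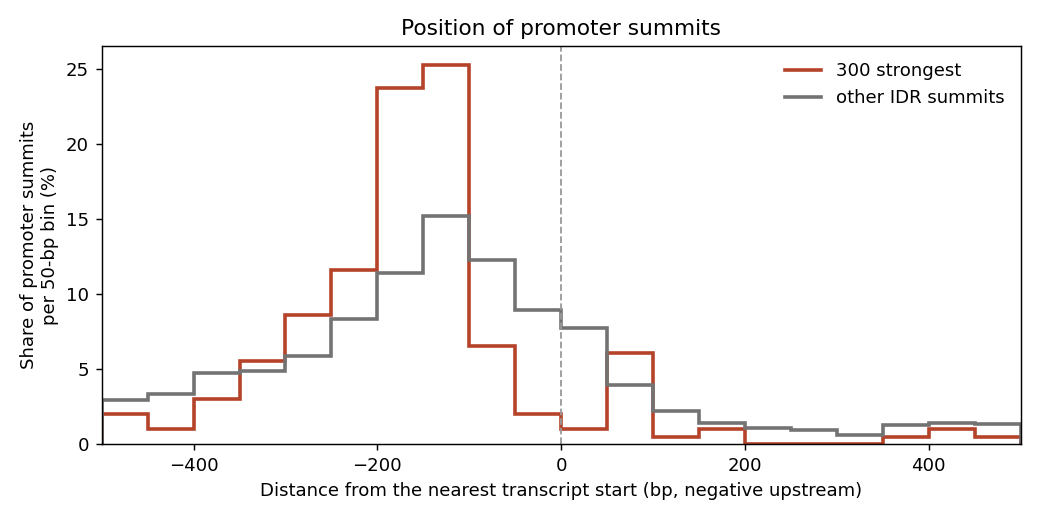
Share (%) of promoter summits per 50-bp bin against distance from the nearest transcript start (bp, negative upstream), for the 198 promoter members and the 2838 other promoter summits. The bins starting at -200 and -150 bp hold 23.7% and 25.3% of the members, against 11.4% and 15.2% of the others.

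Members in introns also lay nearer to starts than other intron summits. Of 76 intron members, 64 were in a first intron (84.2%), against 65.7% of other intron summits (difference 18.5 points, 8.57 to 25.2), and 50 were within 2000 bp of a start (65.8% against 36.6%, difference 29.1 points, 17.8 to 39.0). Over all members, 41 lay over 2000 bp from any start (13.7% against 39.9%, difference -26.2 points, -29.8 to -21.7). Position and arm were compared in 20 ways in all, and those with an interval that excluded 0 only before widening for the 20 were arm 2L (23.7% of members, difference 5.37 points), a nearest start of a protein-coding gene (89.0%, 5.59 points) and another IDR summit within 5000 bp (76.0%, 5.30 points).

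Of the 25 strongest members, 18 were promoter summits, 6 lay in introns and 1 in a non-coding exon. The strongest after CG14100 was 31 bp upstream of Ugalt, which encodes a UDP-galactose transporter, and ranked 2, 1 and 1 in replicates 1, 2 and 3. The third was the cbt summit of the sequence above, 1391 bp upstream of cbt, a zinc-finger transcription factor gene, and ranked 4, 3 and 3. The fourth, in CG11050, ranked 6, 4 and 4. A summit 135 bp upstream of mRpL41, which encodes a protein of the large mitochondrial ribosomal subunit, ranked 3, 5 and 5. Art3, a protein arginine methyltransferase gene, ranked 5, 6 and 6. These 6 members changed places among themselves but kept ranks of 6 or better in every replicate.

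The Polycomb gene ph-p had 2 members, 467 bp upstream of a start (rank 7; 7, 8 and 7 in the replicates) and 443 bp downstream (rank 46). The stronger summit nearest to lncRNA:CR44619, in an exon of lncRNA:Vinr, ranked 8, 10 and 9. Upstream promoter summits followed at px (200 bp, ranked 13, 7 and 8), a wing vein gene, and cu (300 bp, ranked 9, 13 and 15). PNPase ranked 10, 11 and 10. The intron summit of Trl, which encodes the GAGA factor, ranked 11, 14 and 11, and Chro ranked 14, 12 and 18. HmgZ, an HMG-box protein gene, ranked 12, 22 and 20 for an intron summit 566 bp upstream of its start. CG18549, CG32772, CG9147, CG13390, CG5611, CHMP2B, CenG1A, Fkbp14, CG1888, SLC5A11 and Lk6 filled the other places to rank 25. Some of these summits lay within 500 bp of starts of a pair of genes: CHMP2B, an ESCRT-III gene, with Tcs5, and CenG1A with mRpS23. Lk6, which encodes a kinase of the translation factor eIF4E, ranked 26, 23 and 23.

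The 22 intergenic members lay a median of 3733 bp from the nearest start, against 3172 bp in the other intergenic summits. The strongest, near lncRNA:CR45695, was 8369 bp away and ranked 21, 41 and 42 in replicates 1, 2 and 3. CG13323 had the second, at a distance of 11916 bp, with ranks of 35, 34 and 35. Those nearest to lncRNA:CR45643, CycB, the cyclin B gene, and CG31668 had pooled ranks 44, 55 and 78 and lay 908, 3332 and 3756 bp from a start. At the other end, the last 5 members were CG15771, upSET, Nubp2, edl and lncRNA:CR45977, with signal values from 2464.55 to 2446.41. The first 5 outside were lncRNA:CR43626, lncRNA:CR42794, lncRNA:CR44363, Pak3 and a non-coding RNA in an intron of CG10283, from 2444.66 to 2411.38.

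The members had 281 distinct nearest genes. Of these, 19 genes were nearest to 2 members and none to 3 or more. Pairs within 5000 bp numbered 17, the closest being 200 bp apart in CG9663. Besides ph-p, genes with 2 members included cbt (ranks 3 and 186), for (102 and 127), which encodes a cGMP-dependent protein kinase, and Kdm2 (142 and 204), a histone demethylase gene.

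Gene lists were read by the share of their nearest IDR summits that are members, for which the background is the 3.66% above, and no list was tested. That background was not split by annotation class, although promoter summits were more frequent among members than among the others. Over the 8 lists of the design together, 17 members (5.67%) were nearest to a listed gene, against 5.46% of all IDR summits. Cytoplasmic ribosomal protein genes had none among 78 summits, which allows a share of up to 3.85% and so cannot be told from the background, and their strongest summit, at RpS27, was at rank 326. Mitochondrial ribosomal protein genes had 2 of 13, at mRpL41 and mRpL23 (rank 47, ranked 36, 68 and 53). Counted by any start within 500 bp, 30 genes of this list had an IDR summit and 6 had a member. Besides the genes named, these were mRpS10, mRpS23, mRpL24 and mRpL20, each shared with a neighbouring gene. The 3.66% does not apply to this count, and no background for it is given. Insulator and architectural protein genes had 5 of 20: Trl, Chro, Cp190 (rank 87, ranked 72, 105 and 82), which encodes a cofactor of several insulator proteins, and 2 at JIL-1, a histone H3 kinase gene. HMG and nucleosome factor genes had 1 of 7, at HmgZ.

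The lists of regulators were near or below the background. Signalling and growth regulators had 5 of 142 (3.52%), 2 at cbt and 1 each at Lk6, foxo (rank 224) and shn (rank 252). mRNA regulators had 2 of 80, at elav (rank 73), a neuronal RNA-binding protein gene, and brat (rank 227), a translational repressor gene. Ecdysone response and stress factors had 1 of 64, at Atf3 (rank 40), and patterning transcription factors 1 of 50, at slp2 (rank 221).

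Another 3 lists were put together only after the nearest genes had been seen, so their counts are descriptions of that choice. Glycolytic and related enzyme genes had 5 of 11, all promoter summits between 167 and 221 bp upstream of a start. Gapdh2 (rank 30) ranked 46, 24 and 28 in replicates 1, 2 and 3. Ldh (157), Eno (161), Glyp (164), which encodes glycogen phosphorylase, and Hex-A (180), which encodes a hexokinase, lay close together in rank. Polycomb group genes had 6 of 25, with 2 each at ph-p and Kdm2 and 1 each at ph-d (rank 97) and E(z) (rank 144). Trithorax group genes had 3 of 19, at Trl, trx (rank 114) and upSET (rank 297).

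Noc1 itself was nearest to no summit of the IDR or pooled list, and to 1 in replicate 3 (rank 1878). The 50 kb on either side of the gene held 13 IDR summits, 2 of them members, both in introns of JIL-1 at 6039 and 11461 bp from Noc1. Their ranks in replicates 1, 2 and 3 were 206, 97 and 122, and 330, 218 and 203, so both stood weakest in replicate 1.

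Motif differences depended on the window, and the widest window showed GAGA repeats more often in members. Of 20 motifs sought on either strand within 100 bp of the summit, 2 had a difference whose 95% interval excluded 0, and none did in that window once the intervals were widened for the 20 motifs. GAGAGAG was present in 15 members (5%), against 2.33% of the others, a difference of 2.67 points (0.688 to 5.77), and the difference was 1.56, 1.47 and 2.51 points in the replicates' own lists. CACACACA was present in 1 member (0.333%), against 2.64%, a difference of -2.30 points (-2.77 to -0.738). The 2 largest differences had intervals that included 0: TATAAA in 140 members (46.7% against 41.4%, 5.29 points, -0.386 to 11.0) and GAGAG, which GAGAGAG contains, in 70 (23.3% against 18.9%, 4.39 points, -0.124 to 9.57). Within 200 bp of the summit, GAGAGAG was present in 72 members (24.0%), against 7.64% of the others, a difference of 16.4 points (11.8 to 21.5). GAGAG was present there in 170 members (56.7%), against 41.4%, a difference of 15.3 points (9.50 to 20.9). Both intervals also excluded 0 when widened for the 20 motifs, at 9.67 to 24.6 and 6.38 to 23.8. Poly-A (AAAAAAAA), named after its value was seen, was present within 200 bp in 64 members (21.3%), against 27.9%, a difference of -6.57 points (-10.9 to -1.49), and its widened interval included 0. Within 50 bp the GAGAG difference was -0.400 points (-2.92 to 3.17). None of the 20 motifs was found in 32 members.

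The motifs with the largest differences within 100 bp are shown beside the summit in the same windows of 3 further members. Source, strand and selection are the same, and capitals mark every match on either strand. These windows reach only 50 bp from the summit, where the GAGAG difference was -0.400 points (-2.92 to 3.17). The Trl member (rank 12, 3L:14759466-14759566) holds TATAAA on the minus strand. The members near lncRNA:CR45643 (rank 44, 3R:16222437-16222537) and in an intron of tara (rank 85, 3R:16236910-16237010) hold GAGAG on the minus strand. A match is a description of the letters and not of a bound site.
Trl: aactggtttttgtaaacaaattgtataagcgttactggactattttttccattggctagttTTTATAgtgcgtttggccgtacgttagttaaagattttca
lncRNA:CR45643: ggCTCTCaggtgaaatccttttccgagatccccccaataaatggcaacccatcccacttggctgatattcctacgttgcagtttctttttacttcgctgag
tara: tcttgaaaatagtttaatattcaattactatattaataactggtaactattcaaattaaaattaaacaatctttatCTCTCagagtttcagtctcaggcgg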

How the data were processed

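Peak lists from 3 replicates were used, on dm6 per the labels. Per the READMEs deposited with them, replicate lists come from each replicate's alignments and 1 shared control, the pooled list from all 3 alignments, and the IDR list of 8188 summits from these lists. The peak signal is the authors' deposited value, of unstated scale. Aligner, caller and filters were not given in the sources used here. Depth is unknown. The intervals cover counting error over summits only and leave out the spread between replicates. Summit offsets past a peak's end were placed on its last base. Genes came from Ensembl release 115, without transposable elements, which were left out after results that counted them had been seen, and sequence from RefSeq dm6. A summit in several classes took the earliest of promoter, 5′ UTR, exon (coding, then 3′ UTR, then non-coding), intron and intergenic DNA. Shares have 95% Wilson intervals and differences 95% Newcombe intervals, as designed. Wider Bonferroni intervals over the classes, motifs and positions were added after results were seen. A count of 0 allows 3 counts of the total. The interval and matching code was tested on simulated data. Python 3.11.15, numpy 2.4.6, pandas 2.3.3 and scipy 1.17.1 were used.

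The members and lists were chosen with earlier results of these data known. Members named are the 25 strongest, the 5 strongest per class, up to 6 per list, those of widest replicate spread or without a match, those next to rank 300 and the tagged gene. Extremes of GC content and genes with 2 members were chosen after values were seen. Motifs named are the 2 of largest difference and those whose 95% interval excluded 0, both within 100 bp of the summit. Motifs that passed only in other settings were named after their values were seen. The sequences follow the rule of 101 bp around the strongest members, narrowed afterwards to windows without an annotated exon, and the capitals for runs without G or C were also chosen afterwards.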

Additional observations from a re-analysis of the deposited data

How the results depend on the processing

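Promoter, intron and intergenic differences kept their sign and stayed clear of 0 under 38 of 39 alternatives. The exception was the intergenic difference against the next 300 summits, at -0.667 points. Leaving out a replicate gave promoter differences of 27.6 to 30.0 points, intron differences of -17.1 to -15.4 and intergenic differences of -12.1 to -11.4. The IDR list and its summits still came from all 3 replicates here. Only the choice of the 300 within that list could change, so little change could be found. Counting transposable elements as genes, added after seeing the data, gave 29.2 points for promoters.

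Motif results were the least stable. The number of motifs past 0 was 2 at the 95% interval, and 3 within 200 bp, with the 600 strongest summits, without replicate 1 or in promoter summits only. It was 1 with the 150 strongest and 0 with the intervals widened over the motifs, which were added later; within 200 bp, 2 passed the widened interval. The motifs that passed were not the same in each setting. In promoter summits only, CGATA (the BEAF-32 core, -7.13 points) and Ohler 7 (KNNCAKCNCTRNY, -3.79) passed beside TATAAA. Ohler 7 also passed within 50 bp (-1.29). With the 600 strongest, GATAAG (-2.81) and GCCAT (-4.56) passed beside CACACACA. Over all 20 motifs and 8 alternatives, 24 of 160 differences changed sign. Among the motifs named for the window within 100 bp, GAGAG (-0.400 points) and GAGAGAG (-0.478 points) did so within 50 bp of the summit. CACACACA (0.298 points) did so within 200 bp. GAGAGAG was at 16.4 points within 200 bp, a value not repeated with other sets of summits. Within 100 bp, where it was at 2.67 points, it no longer passed with other sets. These were the 150 strongest (2.28 points), the 600 strongest (0.974) and promoter summits only (0.153). TATAAA passed within 50 bp (5.88 points) and in promoter summits only (8.46). Apart from the window lengths themselves, the cause was not tested.

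Matches in all 3 replicates rose to 100% within 250 bp and were 85% among the replicates' own 300 strongest. The median GC content was 31.3% within 100 bp of the summit and 37.9% within 200 bp, against 32.8% and 37.2% in the other IDR summits. Members were thus lower than the others in the first window and higher in the second. The next 300 summits, at 30.6% and 36.4%, were below the members in both windows. Members nearest a listed gene numbered 17, or 11 by any start within 500 bp, 11 of the 150 strongest and 35 of the 600 strongest. The share nearest a listed gene over all IDR summits was 5.46%, and no such share is given for starts within 500 bp. The share of members with another summit within 5000 bp was 76.0% in the IDR list, against 70.7% of the other IDR summits. The widened interval of that difference included 0 (-3.00 to 12.1 points). In the pooled list the share of members was 91.3%, and no share of other summits is given for it. No paired analysis was possible because all samples form 1 group.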
